A study of Canis lupus familiaris with 4 samples.

Results

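The lysosomal cathepsins CTSB, CTSD, CTSK, CTSL and CTSS and the disintegrin metalloproteases ADAM9, ADAM10, ADAM17, ADAMTS1 and ADAMTS5 were examined in 4 canine glioblastoma (GBM) cell lines. Members were the probe sets whose single gene symbol in the array annotation was one of these 10 genes. This gave 14 of the 42924 probe sets on the array, and they covered 7 of the 10 genes. CTSL, ADAM17 and ADAMTS1 had no match by symbol, and ADAM17 and ADAMTS1 are not analysed here. RNA of J3T-2A, J3T-2, J3T-1shA and J3T-1 cells was hybridized to 1 GeneChip Canine Genome 2.0 array per line, without replicates. J3T-1 and J3T-2 share an origin in J3T, a canine GBM line. J3T-2A is J3T-2 with overexpression of ANXA2, the gene of the membrane-binding protein annexin A2, and J3T-1shA is J3T-1 with ANXA2 knocked down. The authors describe J3T-1 as high and J3T-2 as low in annexin A2, and the sample labels give the line names only. The references are the parental lines, and no array of cells carrying an empty or scrambled vector was used here. Whether J3T-2A and J3T-1shA are single clones or pools is not given in the sources used here. All lines grew in culture in the same serum-containing medium, so no stroma or vessels were sampled.

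Cathepsins are proteases that are sorted to the lysosome, where they break down proteins, and tumor cells can also release them to act on matrix around the cell. ADAM proteases sit in the cell membrane and cut, or shed, the outer parts of receptors, adhesion molecules and growth factor precursors, and the related ADAMTS proteases are secreted and cut matrix proteoglycans. In glioma, both families have been studied for their part in invasion. Their roles are described here from work in human and mouse.

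The values are MAS 5.0 signals, which are intensities on a linear scale, and each comparison is the log2 ratio of the signals of 2 arrays. A probe set was taken as measured in a pair where the higher of its 2 signals reached 250, which 35.2% to 35.9% of all probe sets did per array. A ratio over 2 either way was called different. With 1 array per line no ratio carries a test. As a yardstick, the log2 ratios of the 2 brightest measured probe sets of one gene differed with an SD of 0.29 over 3718 genes in J3T-2A over J3T-2 and of 0.37 over 3769 genes in J3T-1shA over J3T-1. In the other 4 pairs this SD was 0.33 to 0.41. It covers the measurement within single RNA samples and not the variation between cultures. The brightest ANXA2 probe set read 28775 and 30103 on the arrays with the labels J3T-2A and J3T-2, and 30093 and 28656 on those labelled J3T-1shA and J3T-1. The second read 35651 and 30311 on J3T-2A and J3T-2 (log2 ratio 0.23, within the SD of 0.29), and 25725 and 24128 on J3T-1shA and J3T-1 (0.09). In neither of these pairs did the signals differ beyond that spread. The array labelled J3T-1, of a line described as high in annexin A2, read lowest by both of these probe sets. Directions below are therefore between arrays as labelled. Of 8 glioma and glial markers found on the array, SOX2, VIM, NES and PDGFRA reached 250 on at least 1 array, while GFAP, the defining astrocyte filament, was at 8.2 to 21.6 on all 4.

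Of the 14 member probe sets, 10 reached 250 on all 4 arrays, 1 on some and 3 on none. CTSB, a lysosomal cysteine protease, was bright on every array. Its brightest probe set read 5802 and 6818 on the arrays with the labels J3T-2A and J3T-2, and 4728 and 7684 on those labelled J3T-1shA and J3T-1. The second read 2159 and 2536 on J3T-2A and J3T-2, and 1522 and 2137 on J3T-1shA and J3T-1. The array labelled J3T-1shA was the lowest of the 4 by both probe sets. Its gap to the next array was 0.30 by the brightest, within the SD of 0.33, and 0.49 by the second, beyond the SD of 0.37. J3T-1shA over J3T-1 gave log2 ratios of -0.70 and -0.49, and J3T-2A over J3T-2 gave -0.23 by both. The highest array differed between them, since it was J3T-1 for the brightest probe set and J3T-2 for the second, and in both cases the gap to the next array was within the SD between probe sets.

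CTSK is the collagen-degrading cysteine protease best known from osteoclasts, and its gene is separated from that of CTSS by 1 gene in the dog RefSeq annotation. Its brightest probe set read 9579 and 10051 on the arrays with the labels J3T-2A and J3T-2, and 6407 and 7944 on those labelled J3T-1shA and J3T-1. The second read 4715 and 4658 on J3T-2A and J3T-2, and 2845 and 3563 on J3T-1shA and J3T-1. Both probe sets placed the 2 J3T-2 arrays above the 2 J3T-1 arrays, with J3T-1shA lowest. The gap between J3T-2A and J3T-2 was 0.07 and 0.02 on the log2 scale, within the SD of 0.29. That between J3T-1shA and J3T-1 was 0.31 and 0.32, also within its SD of 0.37. The 2 probe sets differed by 0.15 at most over the 6 pairs of arrays. Of the osteoclast markers, 3 were on the array. Only ITGB3 reached 250, at 405 and 754 on J3T-2A and J3T-2, and at 416 and 238 on J3T-1shA and J3T-1, whereas ACP5, which is also in the lysosomal list, and CALCR stayed at 128 or less.

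CTSS encodes a cysteine protease that stays active at neutral pH and trims the invariant chain in antigen-presenting cells. Its brightest probe set read 497 and 540 on the arrays with the labels J3T-2A and J3T-2, and 333 and 667 on those labelled J3T-1shA and J3T-1. The array labelled J3T-1shA was lowest, 2.00-fold under J3T-1 and at a log2 distance of 0.58 from J3T-2A, the next array, beyond the SD of 0.33. Each single step among the other 3 arrays was within the SD, but their ends were not, with J3T-2A over J3T-1 at -0.42 (SD 0.36). Of all measured probe sets, 3.45% were at least as low in J3T-1shA over J3T-1. The ratio of 2.00 lay just past the limit and came under it after median centring (log2 ratio -0.98) and after a pseudocount of 80 (-0.86). The second probe set was under 250 on every array, at 103 and 61.8 on J3T-2A and J3T-2, and at 54.4 and 127 on J3T-1shA and J3T-1, and again lowest on J3T-1shA. Its ratios are not read as measured. Because CTSS is abundant in microglia and macrophages, 10 of their markers were read beside it. Only C1QA reached 250, at 298 and 317 on J3T-2A and J3T-2, and at 515 and 662 on J3T-1shA and J3T-1. AIF1, CD68, CD14, CSF1R, PTPRC, ITGAM, TYROBP, C1QB and C1QC peaked at 28.7 to 107. The summed signal of the 10 markers was 668 and 782 on J3T-2A and J3T-2, and 881 and 1019 on J3T-1shA and J3T-1, and its part in the CTSS ratios was not tested. In RNA of whole cultures, fewer cells of a type and less RNA per cell cannot be told apart.

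CTSD, the main aspartic protease of the lysosome, was, of the cathepsin members, the one with the lowest ratio in J3T-2A over J3T-2. Its brightest probe set read 945 and 1677 on the arrays with the labels J3T-2A and J3T-2, and 1166 and 1449 on those labelled J3T-1shA and J3T-1. The second read 263 and 369 on J3T-2A and J3T-2, and 249 and 387 on J3T-1shA and J3T-1, so that it lay just over 250 on J3T-2A and just under it on J3T-1shA. Both probe sets put the 2 unmodified lines above the 2 modified ones. In J3T-2A over J3T-2 the log2 ratios were -0.83 and -0.49, and in J3T-1shA over J3T-1 they were -0.31 and -0.63. The first of each pair belongs to the brightest probe set, and its -0.31 was within the SD of 0.37 while the other 3 values were beyond theirs. No CTSD ratio reached 2-fold.

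**Figure D1:**
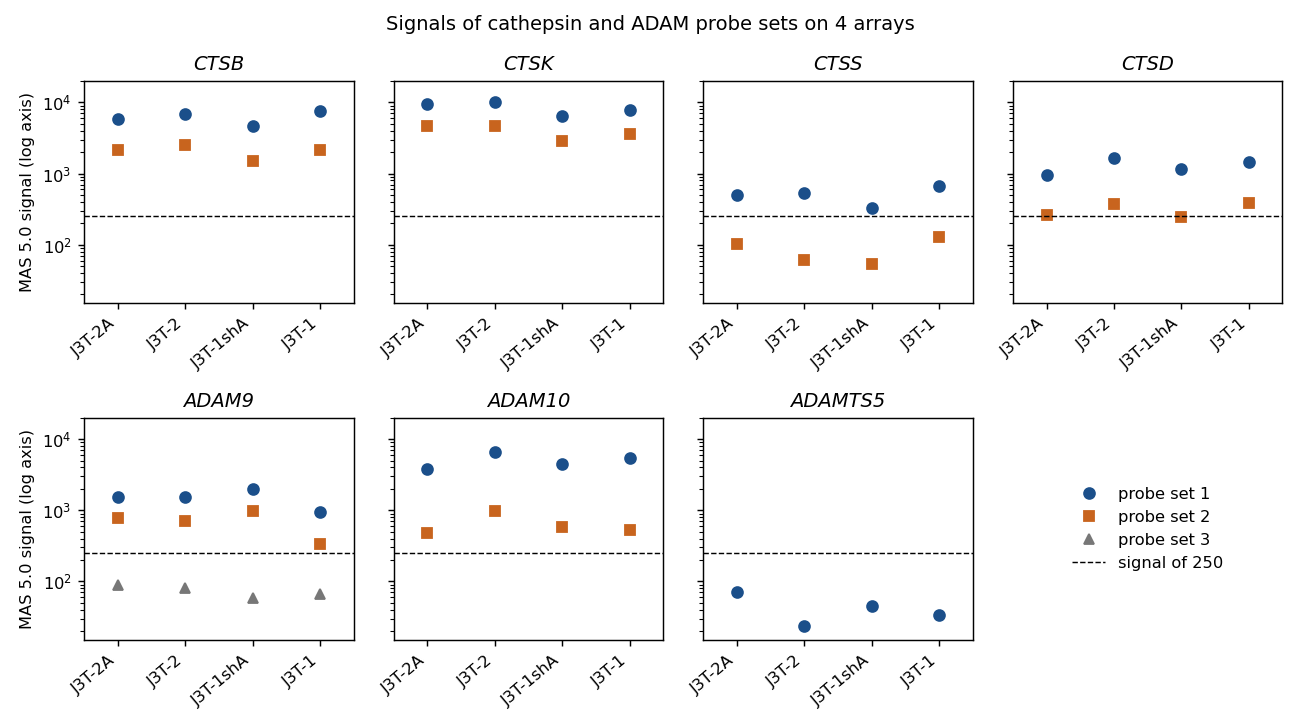
MAS 5.0 signal (log axis) of each probe set of the 7 matched genes on the 4 arrays, 1 array per line, with probe sets numbered from the brightest and the dashed line at 250. CTSB and CTSK lie far above the line on all 4 arrays, the second CTSD probe set straddles it, and ADAMTS5, the second CTSS and the third ADAM9 probe set lie under it throughout.

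ADAM9, a membrane protease that sheds growth factor precursors, had the lowest signal on the array labelled J3T-1 and the highest on that labelled J3T-1shA. The brightest probe set read 1538 and 1552 on J3T-2A and J3T-2, and 2013 and 948 on J3T-1shA and J3T-1. The second read 781 and 718 on J3T-2A and J3T-2, and 963 and 331 on J3T-1shA and J3T-1. J3T-1shA over J3T-1 was 2.12-fold and 2.91-fold higher (log2 ratios 1.09 and 1.54), and 3.82% and 1.96% of all measured probe sets were at least as high. J3T-2A and J3T-2 did not differ beyond the spread, at -0.01 and 0.12. The array labelled J3T-1 stood apart from the other 3, with a gap to the next array of 0.70 by the brightest probe set and of 1.12 by the second. Each single step among those 3 was within the SD, but their ends lay just beyond it. J3T-2A over J3T-1shA was -0.39 by the brightest (SD 0.33), and J3T-1shA over J3T-2 was 0.42 by the second (SD 0.41). The third probe set, listed against the same sequence tag as the second, was dim. It read 88.5 and 80.4 on J3T-2A and J3T-2, and 57.6 and 67.2 on J3T-1shA and J3T-1, and did not show this order.

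ADAM10, the main sheddase of Notch receptors and N-cadherin, was lowest on the array with the label J3T-2A and highest on that labelled J3T-2. Its brightest probe set read 3772 and 6639 on J3T-2A and J3T-2, and 4544 and 5486 on J3T-1shA and J3T-1. The second read 482 and 983 on J3T-2A and J3T-2, and 577 and 536 on J3T-1shA and J3T-1. J3T-2A over J3T-2 gave log2 ratios of -0.82 and -1.03, of which only the second, 2.04-fold lower, passed the limit. That call was lost after median centring (-0.97) and after a pseudocount of 80 (-0.92). By the second probe set the array labelled J3T-2 stood above the other 3 by 0.77, beyond the SD of 0.41, whereas the brightest showed steps of 0.27 to 0.28 that were all within the SD of their pairs. J3T-1shA over J3T-1 was -0.27 and 0.11, with no common direction.

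ADAMTS5, a secreted aggrecanase, was represented by 1 probe set that was under 250 on every array. It read 70.7 and 23.4 on J3T-2A and J3T-2, and 45.0 and 33.5 on J3T-1shA and J3T-1. These signals lie under the array medians of 102 to 107, so no ratio of ADAMTS5 is read as measured, including the nominal 3.02-fold between J3T-2A and J3T-2.

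ANXA2 overexpression was compared with its parent by J3T-2A over J3T-2. CTSB, CTSK, CTSS and ADAM9 were close to level between these arrays, and CTSD and ADAM10 were lower on J3T-2A. Of 11 measured member probe sets 0 were over 2-fold higher and 1, the second of ADAM10, was over 2-fold lower. Among all 12298 measured probe sets, 1.56% were over 2-fold higher and 1.85% over 2-fold lower. The members had a median log2 ratio of -0.23, beside 0.00 over all measured probe sets, with 9 of 11 under 0 as against 50.0% of all. These 11 probe sets belong to 6 genes, so they are not 11 separate observations.

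ANXA2 knockdown was compared with its parent by J3T-1shA over J3T-1. All 4 cathepsin genes had log2 ratios under 0 and ADAM9 was higher on the array labelled J3T-1shA, while the 2 ADAM10 probe sets lay on opposite sides of 0. Both CTSK probe sets (-0.31 and -0.32), the brightest of CTSD (-0.31) and both of ADAM10 (-0.27 and 0.11) were within the SD of 0.37. Over 2-fold higher were 2 of 11 measured member probe sets, both of ADAM9, and over 2-fold lower was 1, that of CTSS. Among all 12447 measured probe sets, 4.47% were over 2-fold higher and 3.48% over 2-fold lower. After median centring the split of the member calls was 2 higher and 0 lower. All 7 measured cathepsin probe sets were under 0, with a median log2 ratio of -0.49. The share of all measured probe sets under 0 was 50.2%, with a median within 0.01 of 0. The 7 probe sets belong to 4 genes and those of one gene share a target, so they are not 7 separate observations. On the array labelled J3T-1shA, measured fibroblast and pericyte markers were also higher, 3 of 4 over 2-fold. By brightest probe set, 4.26% of all measured genes were. COL1A1, a chain of type I collagen, read 16842 on J3T-1shA against 2014 on J3T-1, ACTA2, smooth muscle actin, 13625 against 562, and DCN, decorin, 1167 against 388. The 7 markers of that list summed to 50486 on J3T-1shA against 18142 on J3T-1. The same sum was 42150 on J3T-2A against 30330.1 on J3T-2, where COL1A1 read 11899 against 3799. DCN went the other way in this pair, at 795 against 1292, and was the 1 of 3 measured markers under 0. The largest part of these 2 sums was LUM, lumican, at 29213 and 25065 (log2 ratio 0.22). Of 6 endothelial markers only PECAM1 reached 250, on J3T-2 alone and by its brightest probe set only, at 773. Its further probe sets stayed under 250 on every array. The part of these markers in the protease ratios was not tested. The comparisons of J3T-2A with J3T-2 and of J3T-1shA with J3T-1 share no array.

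**Figure D2:**
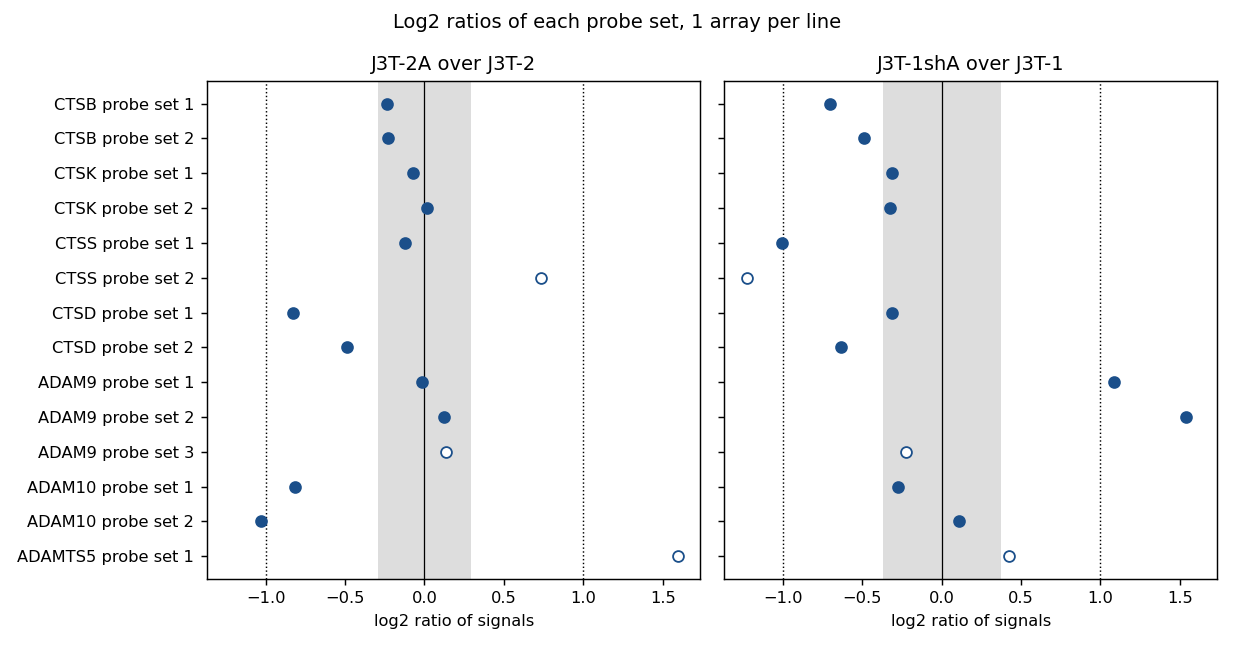
Log2 ratio of signals of each member probe set in J3T-2A over J3T-2 (left) and J3T-1shA over J3T-1 (right). Filled points are measured and open ones have both arrays under 250, dotted lines mark 2-fold, and the grey band is 1 SD of the difference between probe sets of one gene (0.29 and 0.37). ADAM9 lies beyond 2-fold on the right (1.09 and 1.54) and near 0 on the left (-0.01 and 0.12).

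Between the unmodified lines, J3T-1 over J3T-2, the ADAM probe sets read lower on the array labelled J3T-1 and the cathepsins were mixed. All 4 measured ADAM probe sets were under 0, at -0.71 and -1.12 for ADAM9 and -0.28 and -0.88 for ADAM10. The -0.28 of the brightest ADAM10 probe set was within the SD of 0.37. These probe sets belong to ADAM9 and ADAM10 alone, so they are not 4 separate observations. Only the second of ADAM9, 2.17-fold lower, passed 2-fold, which makes 1 of 11 members over 2-fold lower and 0 over 2-fold higher, beside 4.36% and 2.63% of 12486 measured probe sets. Of 7 cathepsin probe sets, 4 were under 0 and 3 over it, and 49.6% of all measured probe sets were under it. CTSK was at -0.34 and -0.39, CTSS at 0.30, CTSB at 0.17 and -0.25 and CTSD at -0.21 and 0.07.

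Between the 2 lines the authors describe as low in ANXA2, J3T-1shA over J3T-2, none of 11 measured members passed 2-fold. Over all 12593 measured probe sets, 9.26% did. All 7 cathepsin probe sets were under 0, as were 48.9% of all, with log2 ratios of -0.52 to -0.74 and a median of -0.65 beside 0.01 for all. CTSK was at -0.65 and -0.71 here. ADAM10 was at -0.55 and -0.77, and ADAM9 at 0.38 and 0.42. This pair shares the array labelled J3T-1shA with J3T-1shA over J3T-1, so the low cathepsin values of both rest on that 1 array.

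Between the 2 lines the authors describe as high in ANXA2, J3T-2A over J3T-1, 1 of 11 measured members passed 2-fold. This was the second probe set of ADAM9 at 2.36-fold higher, and 0 were over 2-fold lower, beside 2.92% and 1.88% of 12266 measured probe sets. The brightest probe set of ADAM9 was at 0.70. CTSD was lower by both probe sets, at -0.62 and -0.56, and ADAM10 was at -0.54 and -0.15. CTSK was higher, at 0.27 and 0.40, CTSS was at -0.42 and CTSB at -0.41 and 0.01. Between the 2 modified lines, J3T-2A over J3T-1shA, none of 11 passed 2-fold, where 5.47% of 12279 did. Of the cathepsin probe sets 6 of 7 were over 0, as were 48.0% of all measured probe sets, led by CTSK (0.58 and 0.73) and CTSS (0.58), then CTSB (0.30 and 0.50), whereas CTSD was at -0.30 and 0.08. This pair too uses the array labelled J3T-1shA and the same 4 genes, so it is no separate observation of the low cathepsin values there. All 4 ADAM probe sets were under 0, as were 51.9% of all, with values between -0.26 and -0.39. Only the -0.39, of the brightest ADAM9 probe set, was beyond the SD of 0.33.

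**Figure D3:**
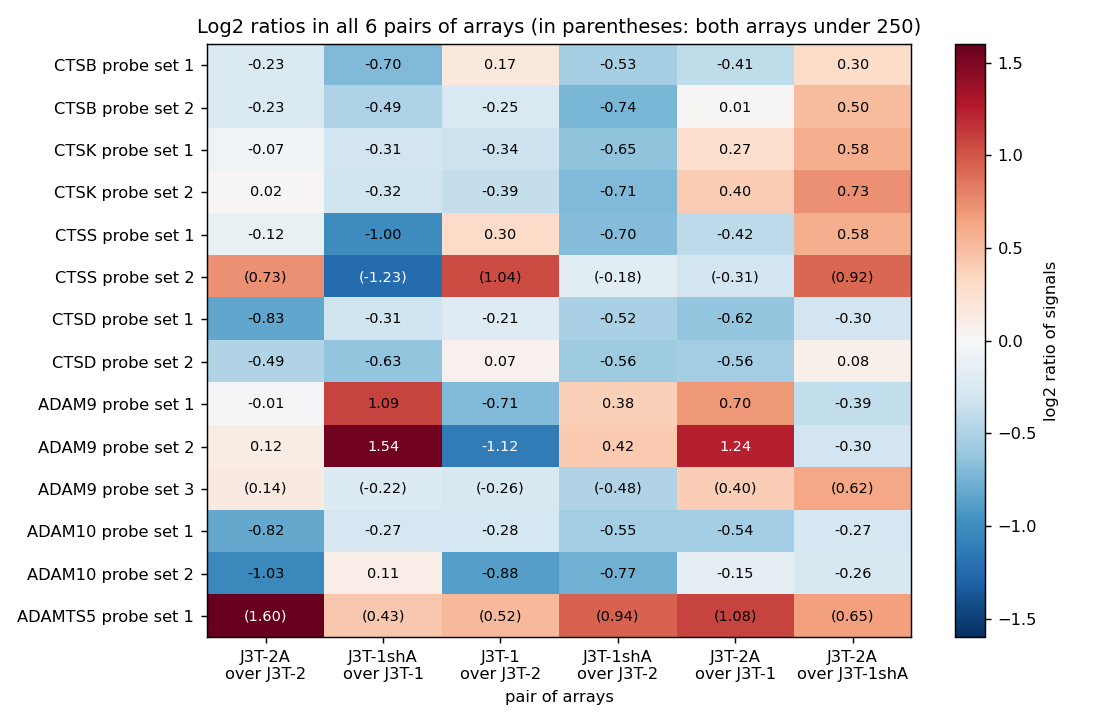
Log2 ratios of the 14 member probe sets (rows) in all 6 pairs of arrays (columns), with red for higher and blue for lower in the line named first, and parentheses where both arrays were under 250. The 2 columns with J3T-1shA over another line are blue for every measured cathepsin probe set (medians -0.49 over J3T-1 and -0.65 over J3T-2).

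The 5 genes with 2 measured probe sets gave 30 comparisons between probe sets over the 6 pairs. In 20 of them the 2 log2 ratios differed by less than 1 SD and in 23 they had the same sign. CTSK stayed within 1 SD in every pair. ADAM9 kept its sign in 5 of 6 pairs, the exception being J3T-2A over J3T-2, and its second probe set gave the wider ratio wherever the array labelled J3T-1 was set against J3T-1shA, J3T-2 or J3T-2A. The suffix _s_at, carried by both of these ADAM9 probe sets and by the second of CTSB, CTSS and CTSD, marks sets whose probes can match more than 1 transcript, and what part this had in the differences was not tested.

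CTSL had no match by symbol, but RefSeq lists CTSL among the synonyms of a locus, LOC403708, that it classes as a pseudogene, and 2 probe sets carry that locus as their only symbol. They fall outside the rule and are given as a description. CTSL encodes a lysosomal cysteine protease. The brighter probe set read 2283 and 2086 on the arrays with the labels J3T-2A and J3T-2, and 2114 and 1963 on those labelled J3T-1shA and J3T-1. The other read 1482 and 1006 on J3T-2A and J3T-2, and 1058 and 731 on J3T-1shA and J3T-1. Unlike those of CTSB, CTSK and CTSS, neither was lowest on J3T-1shA, with log2 ratios over J3T-1 of 0.11 and 0.53. Both were lowest on J3T-1, but J3T-1 over J3T-2 was -0.09 by the brighter, within the SD of 0.37, and -0.46 by the other. The other was also at 0.56 in J3T-2A over J3T-2 (SD 0.29) and 2.03-fold higher in J3T-2A over J3T-1. The brighter was at 0.13 and 0.22 in these pairs. Whether these 2 probe sets read CTSL transcripts was not tested.

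Of 10 other cathepsins and related lysosomal proteases on the array, 5 were measured in J3T-2A over J3T-2 and 6 in J3T-1shA over J3T-1, and none passed 2-fold in either. Genes are given by their brightest probe set here, and 1.69% of measured genes were over 2-fold higher and 2.10% over 2-fold lower in J3T-2A over J3T-2, beside 4.26% and 3.80% in J3T-1shA over J3T-1. In J3T-1shA over J3T-1, 5 of the 6 were under 0, as were 52.9% of all measured genes, and the median was -0.50. CTSF, a cysteine cathepsin, read 400.1 on J3T-1shA against 792 on J3T-1, which is 1.98-fold lower. CTSC, which activates serine proteases of immune cells, read 267 against 461, and CTSO, CTSA and CTSH were at -0.70, -0.30 and -0.29. LGMN, the asparaginyl protease legumain that matures cathepsins, was the exception at 0.45. In J3T-2A over J3T-2 the median was -0.22, with CTSH lowest (-0.83) and CTSC highest (0.64).

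Among lysosomal hydrolases and membrane proteins, 27 genes were measured in J3T-2A over J3T-2 and none passed 2-fold (median 0.01). In J3T-1shA over J3T-1 4 of 25 were over 2-fold higher and 0 over 2-fold lower, beside 4.26% and 3.80% of all measured genes. The median was 0.25, on the other side of 0 from that of the cathepsins. ASAH1, the acid ceramidase, read 15353 on J3T-1shA against 3520 on J3T-1, which is 4.36-fold higher, and 8519 against 1854 by its second probe set. NPC2, which carries cholesterol out of the lysosome, was 2.68-fold higher, with a log2 ratio of 1.42 and of 1.19 by the second. NAGLU, an enzyme of heparan sulfate breakdown, was 2.28-fold higher. MAN2B1, the lysosomal alpha-mannosidase, read 258 against 105, but its second probe set was under 250. Of the sorting and control genes, which include the mannose 6-phosphate receptors M6PR and IGF2R and the lysosomal transcription factor TFE3, none of 9 and none of 10 passed 2-fold (medians 0.28 and -0.06). Of cathepsin inhibitors, none of 4 and none of 3 did, with CSTB, the cytosolic inhibitor stefin B, at -0.15 in J3T-2A over J3T-2 and -0.31 in J3T-1shA over J3T-1.

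Most relatives of the ADAM members were dim. Of 9 other ADAM genes, only ADAM15 reached 250 on any array, at log2 ratios of -0.13 in J3T-2A over J3T-2 and -0.53 in J3T-1shA over J3T-1. Of 18 other ADAMTS and ADAMTS-like genes, 2 reached it. ADAMTS6 was at 0.48 and -0.72 and ADAMTSL1 at 0.18 and 0.31 in the same comparisons.

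Among the inhibitors, TIMP1 and TIMP3 passed 2-fold in at least 1 of these comparisons. Of 8 partners and inhibitors measured in J3T-2A over J3T-2, only TIMP3, which blocks ADAM10, ADAM17 and the aggrecanases, passed 2-fold, at 401 against 817. Its other 3 probe sets were under 250 on both arrays. In J3T-1shA over J3T-1 TIMP3 was 9.41-fold higher, at 1827 against 194, and its other 3 probe sets were also higher, at 624 to 1183 against 65.4 to 90.8. Those J3T-1 signals lie under the array median, so the size of their ratios is not read. TIMP1, which inhibits ADAM10, was 4.84-fold lower. Of the 8 measured in J3T-2A over J3T-2, 1 was thus over 2-fold lower, beside 2.10% of all measured genes. In J3T-1shA over J3T-1, 1 of 7 was over 2-fold higher and 1 over 2-fold lower, beside 4.26% and 3.80%. RHBDF1, an iRhom partner of ADAM17, was at -0.45, and TSPAN5, a tetraspanin partner of ADAM10, read 506 against 1008, just within 2-fold at -0.99.

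Of shed ADAM substrates, 1 of 10 measured in J3T-2A over J3T-2 was over 2-fold higher, the receptor gene MET at 1411 against 671. The share of all measured genes was 1.69%. In J3T-1shA over J3T-1, 3 of 9 substrates were over 2-fold higher and 1 over 2-fold lower, beside 4.26% and 3.80% of all measured genes. The higher ones were MET (3.18-fold), the adhesion molecule ALCAM (2.35-fold, and 1.61 on the log2 scale by its second probe set) and CDH2, which encodes N-cadherin, at 10267 against 5011 (2.05-fold, log2 ratio 1.03, and 1.06 by its second). AXL, a receptor kinase shed by ADAM10, read 170 against 539, but its second probe set was under 250. Of the proteoglycan substrates of ADAMTS proteases 2 were measured. VCAN, versican, read 474 against 1287 in J3T-1shA over J3T-1, a log2 ratio of -1.44 and of -1.12 by its second probe set, and BGN, biglycan, was at -0.12.

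**Figure D4:**
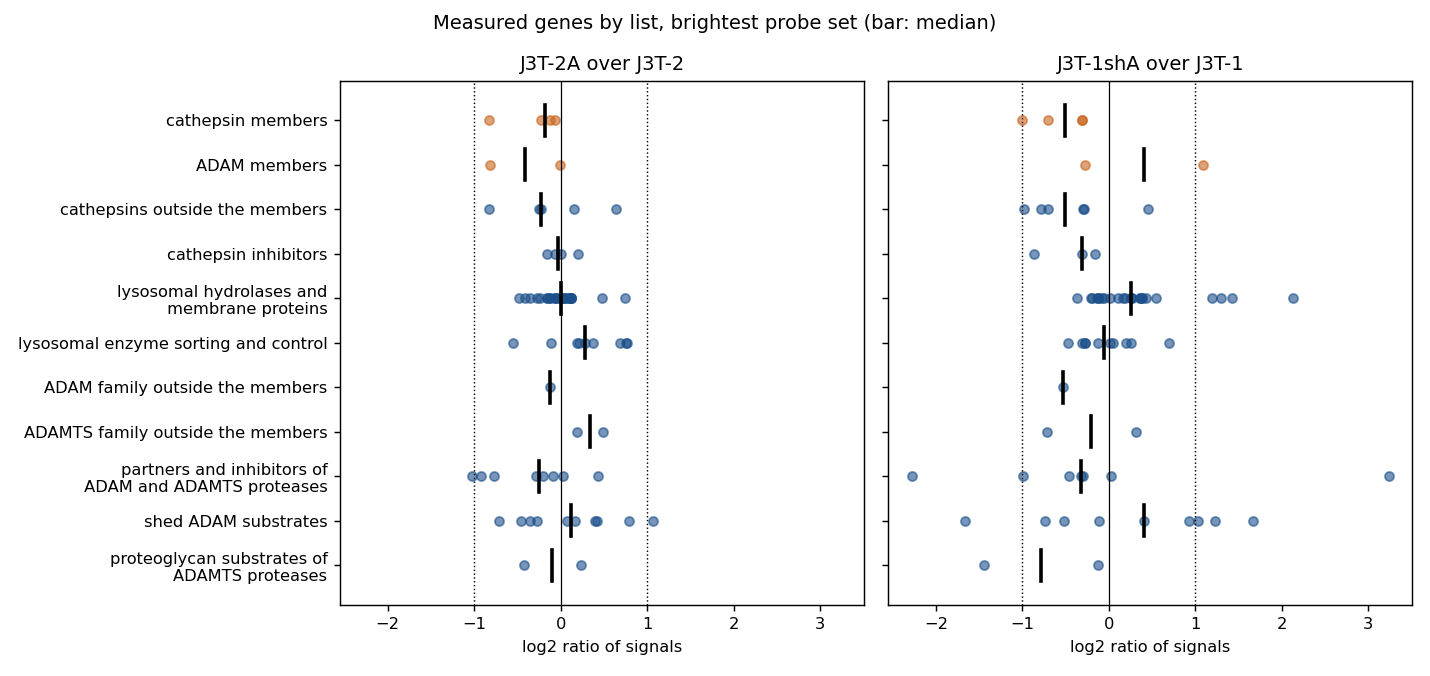
Log2 ratios of measured genes by their brightest probe set in J3T-2A over J3T-2 (left) and J3T-1shA over J3T-1 (right), with cathepsin and ADAM members in orange, other lists in blue, black bars for medians and dotted lines at 2-fold. The medians of other cathepsins (-0.22 and -0.50) lie under 0 in both, that of lysosomal hydrolases and membrane proteins (0.01 and 0.25) does not, and TIMP1 and TIMP3 are the outermost points on the right.

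For CTSS and ADAM9, whose brightest probe sets passed 2-fold in a comparison with the parent, the genes of most similar pattern were sought among 7240 others by the root mean square difference of mean-centred log2 signals over the 4 arrays. For CTSS these were SP140 (difference 0.04), at 507 and 565 on J3T-2A and J3T-2 and 325 and 665 on J3T-1shA and J3T-1, and NR3C1, the glucocorticoid receptor (0.04), at 577 and 655 on J3T-2A and J3T-2 and 375 and 780.1 on J3T-1shA and J3T-1. For ADAM9 they were RNFT1 (0.03), at 1296 and 1310 on J3T-2A and J3T-2 and 1645 and 762 on J3T-1shA and J3T-1, and SCAI (0.03), which passed 250 on the array labelled J3T-1shA alone. With 4 arrays and this many genes, close matches are easily found, and these names are a description only.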

How the data were processed

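Total RNA of 4 canine GBM lines was labelled and hybridized to 1 array each. The authors computed signal intensity per probe set with MAS 5.0 at default settings and scaled each array globally to a trimmed mean. The methods give a target of 100, but the deposited intensities had 2% trimmed means of 495.8 to 496.0, so the limit of 250 used here equals 50 on the stated scale. The deposited table holds no detection calls, and no genome build is given in the sources used here, so no positions are printed. No sequences were used here. The annotation listed 29693 probe sets, 29254 of them with 1 gene symbol (15115 genes), 439 with several, and 13231 of the probe sets were not listed.

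Log2 ratios of deposited intensities were computed in Python 3.11.15 with pandas 2.3.3, without further normalization, pseudocount or floor. Every member probe set was kept, and background shares were taken over all measured probe sets with 1 symbol. For other genes, the brightest probe set by mean over the 4 arrays stood for the gene. Named were all members, genes of the other lists over 2-fold in either comparison with a parent, and, for members whose brightest probe set passed it, the 2 genes of most similar pattern. List members named within 2-fold, and the further probe sets of list genes, were chosen after their values were seen. Members and lists were chosen with earlier results of these data known. Each line has 1 array, so no p-value was computed, and precision is limited by having so few arrays. The ratio and filter steps were tested on simulated data. Alternatives were median centring, quantile normalization, a pseudocount of 80, a floor of 160, limits of 500, none or 250 on both arrays, 1 value per gene, and a fold of 1.5.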

Additional observations from a re-analysis of the deposited data

Results flagged for a closer look

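CTSD was lower on both modified lines than on their parents, although the authors describe ANXA2 as raised in one and lowered in the other. By its second probe set, the log2 ratio was -0.49 in J3T-2A over J3T-2, lower in the line with ANXA2 overexpression, and -0.63 in J3T-1shA over J3T-1, lower in the line with ANXA2 knocked down. Both values were beyond the SD between probe sets (0.29 and 0.37). The brightest probe set had the same signs, at -0.83 and -0.31, of which the second was within that SD. With 1 array per line the difference between the backgrounds was not tested, and the signals of the second probe set were between 249 and 387, close to the limit of 250.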

How the results depend on the processing

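Counts of member probe sets over 2-fold were small, so single calls moved them. In J3T-2A over J3T-2 the count of 1 was 0 after median centring, a pseudocount of 80, the brightest probe set or the median per gene, 2 with no limit on signal and 3 at a fold of 1.5. In J3T-1shA over J3T-1 the count of 3 was 5 at a fold of 1.5. In J3T-1 over J3T-2 the count of 1 was 0 with a pseudocount of 80, the brightest probe set or the median per gene, 2 with no limit and 3 at a fold of 1.5. In J3T-2A over J3T-1 the count of 1 was 0 by the brightest probe set or the median per gene, 2 with no limit and 3 at a fold of 1.5. The counts of 0 in J3T-1shA over J3T-2 and in J3T-2A over J3T-1shA were 5 and 1 at a fold of 1.5. The other alternatives left each count within 1.5 times. All 264 recomputed log2 ratios of measured member probe sets stayed within the SD between probe sets of the reported value, with moves of up to 0.20 under the pseudocount. Quantile normalization moved the ratios by up to 0.05. The other 2 settings were bound to stay within the SD. The floor of 160 lies under every measured member signal, so its 66 ratios could not move. Median centring shifts all ratios of a pair by the same amount, at most 0.07. No array could be left out, and no SD between cultures can be given. No paired analysis was possible because each line has 1 array.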
